A study of Caenorhabditis elegans with 2 samples.

Results

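The genes described here are ND5, CYTB, COX1, ND1 and ATP6, 5 protein-coding genes of the mitochondrial DNA of Caenorhabditis elegans. They were chosen by name from the 12 protein-coding genes of that molecule, with the strength of the peaks over them in these same lists already known. The molecule holds 36 annotated genes, and the whole genome 19983 protein-coding genes. Because the strength of the peaks was known when they were named, the levels below describe the peak lists and carry no test.

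The study mapped where DAO-5, the worm relative of the nucleolar protein Nopp140, was recovered with DNA in whole animals by chromatin immunoprecipitation and sequencing (ChIP-seq). Its 1 group had 2 biological replicates. Both came from strain OP252, a transgenic line that stably carries DAO-5 with a GFP and FLAG tag at its C-terminus, as hermaphrodites at the L4 or young adult stage, and an antibody to GFP was used. The promoter that drives the tagged protein and an untagged strain were not analysed here, and all tissues of the animal contribute. No separate group was compared, so the question is where peaks lay on the mitochondrial genes, how strong they were and how well the replicates matched.

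Mitochondrial DNA is a small circle kept in many copies in each cell, outside the nucleus. In the worm all its genes lie on a single strand, without introns and mostly without spacers, and transfer RNA (tRNA) genes stand between many of the protein genes. The protein genes encode core subunits of the respiratory chain, which moves electrons to oxygen and pumps protons, and of the ATP synthase, which uses the proton gradient. ND1 and ND5 are membrane subunits of complex I (NADH dehydrogenase), CYTB is the cytochrome b of complex III, COX1 is the catalytic subunit of complex IV (cytochrome c oxidase) and ATP6 is a proton channel subunit of the ATP synthase.

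All 36 genes are annotated on the plus strand of the 13794 bp of mitochondrial DNA in ce11. ND5 lies at chrM:11691-13274 (1584 bp), CYTB at chrM:4504-5616 (1113 bp), COX1 at chrM:7845-9422 (1578 bp), ND1 at chrM:1763-2638 (876 bp) and ATP6 at chrM:2634-3233 (600 bp). Together these genes make up 41.7% of the molecule. ND1 and ATP6 are neighbours, and ND5 is followed by a tRNA gene and the longest non-coding stretch.

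The sequences at the leading summit of each gene are shown because these are the points at which the 5 genes carry their strongest thresholded signal. Each is the plus strand of ce11 from RefSeq, reaching 50 bp out from the summit both ways, and capitals mark the summit base with 10 bp on either side. They lie at chrM:12378-12478 for ND5, chrM:4624-4724 for CYTB, chrM:8204-8304 for COX1, chrM:1801-1901 for ND1 and chrM:2970-3070 for ATP6. The last line is a window of the same length from the middle of the non-coding stretch (chrM:13511-13611), in which no list had a peak, and it has no capitals. The sequence of this window repeats itself. Whether reads could be placed uniquely in it was not analysed, so the missing peak does not show that signal was absent.
ND5: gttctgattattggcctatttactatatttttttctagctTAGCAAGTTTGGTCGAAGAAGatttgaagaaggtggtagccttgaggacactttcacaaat
CYTB: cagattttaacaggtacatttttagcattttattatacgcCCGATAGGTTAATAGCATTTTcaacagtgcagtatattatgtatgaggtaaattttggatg
COX1: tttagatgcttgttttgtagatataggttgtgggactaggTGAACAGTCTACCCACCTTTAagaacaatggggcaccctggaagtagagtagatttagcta
ND1: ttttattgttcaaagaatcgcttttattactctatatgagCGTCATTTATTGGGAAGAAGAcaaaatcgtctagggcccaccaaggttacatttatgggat
ATP6: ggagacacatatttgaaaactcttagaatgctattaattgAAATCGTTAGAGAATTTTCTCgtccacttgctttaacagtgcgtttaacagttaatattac
Non-coding stretch: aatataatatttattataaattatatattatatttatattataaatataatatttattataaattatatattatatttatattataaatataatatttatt

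The mitochondrial peaks stood at the head of every list. The thresholded list held 17 of them among 549 peaks, at ranks 1 to 24, and the pooled list held the same 17 with equal positions, summits and signals. Replicate 1 had 20 among 23091 peaks and replicate 2 had 18 among 21273. Signal, the strength that the authors gave each peak, ran from 155 to 2372 over the 17 pooled peaks. The strongest nuclear peak (chrV:12303513-12303706), at the small nucleolar RNA gene C51F7.4 within frm-7, had 258 at rank 16, and 7 nuclear peaks exceeded the weakest mitochondrial one. In replicate 1 the mitochondrial signals ran from 28.3 to 1008 and the strongest nuclear one was 127. In replicate 2 they ran from 74.9 to 1355, with 135 for the nucleus. The weakest mitochondrial peak ranked 591 in replicate 1 and 26 in replicate 2. All mitochondrial peaks had the top −log10 q of their list, as did 608 nuclear peaks of the pooled list, so this value does not order them.

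**Figure D1:**
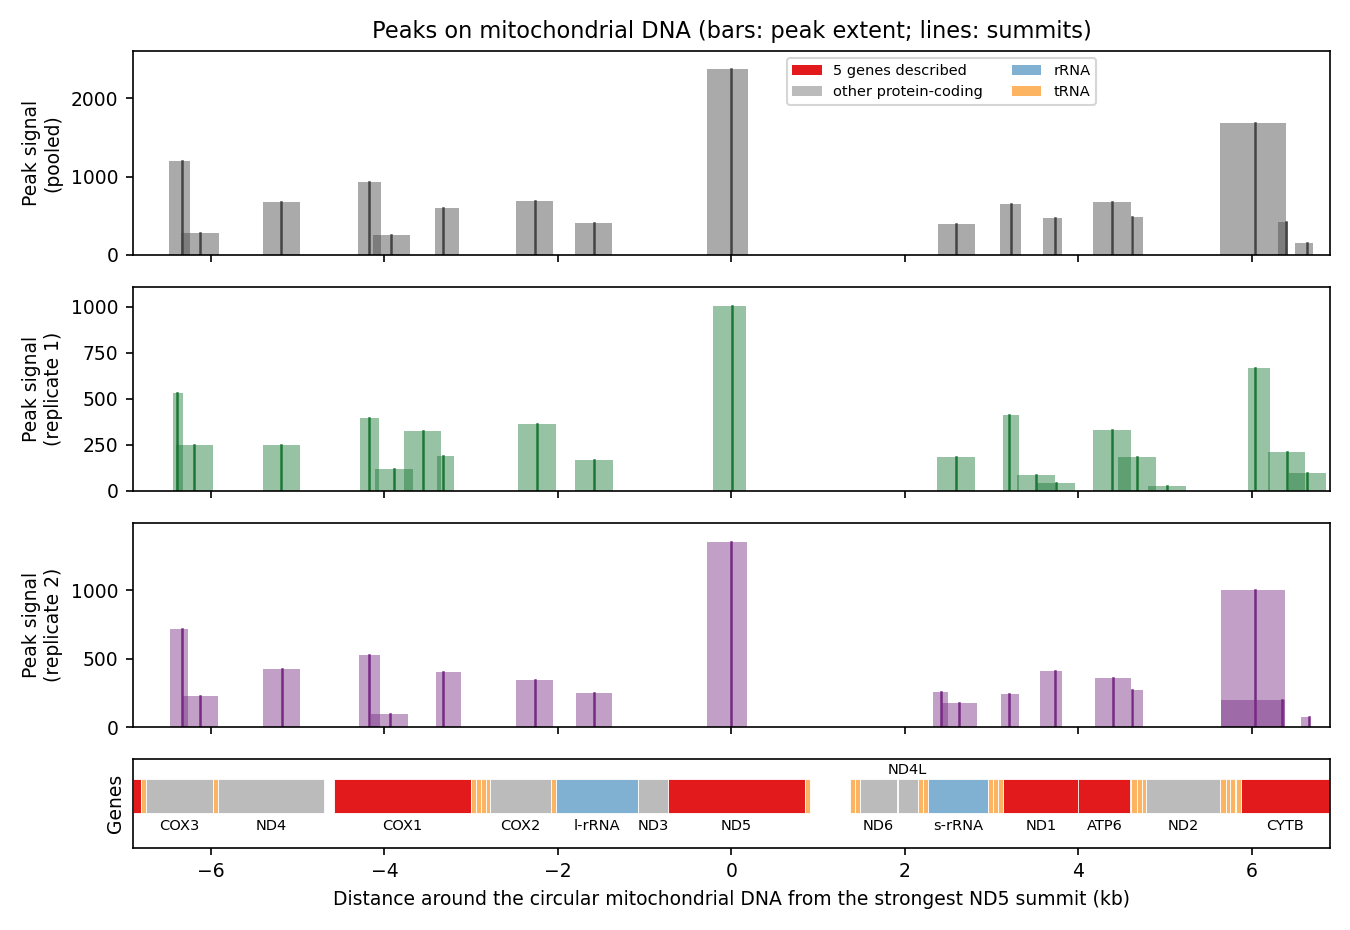
Peaks on mitochondrial DNA in the pooled list and in each replicate, by distance in kb around the circle from the strongest ND5 summit (x axis) and by deposited signal (y axis, a separate scale for each list). Bars span each peak and lines mark summits, with genes drawn below. The ND5 peak is the tallest in all 3 lists, at 2372, 1008 and 1355, and no peak lies in the stretch to its right that holds ND6 and ND4L.

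All 5 genes were overlapped by a peak in all 4 lists. For comparison, a peak overlapped 1.68% of the 19971 nuclear protein-coding genes in the thresholded list and 39.4% in the pooled one. The replicate lists gave 48.9% for replicate 1 and 46.8% for replicate 2. Nothing is read from this difference, since the genes were chosen with their peaks known. The 5 genes held 10 of the 17 thresholded summits, 12 of the 20 in replicate 1 and 10 of the 18 in replicate 2. They make up 41.7% of the molecule, and nothing is read from these counts either.

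ND5 had 1 peak in every list, the strongest of each. The signal was 2372 in the thresholded and pooled lists, 1008 in replicate 1 and 1355 in replicate 2. The summit fell at 12428 in the thresholded list, 12433 in replicate 1 and 12423 in replicate 2, which is 738 bp into the gene, 46.6% of its length, for the thresholded summit. The replicates thus placed it 10 bp apart. The peak spanned 465 bp (chrM:12150-12614), 382 bp in replicate 1 and 463 bp in replicate 2. It covered 29.4% of the gene in the thresholded list, so ND5 had the highest signal of the 12 protein-coding genes and the lowest covered share of the 8 that had a peak.

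CYTB had 3 peaks, and its first was second to ND5 in every list. That peak had a signal of 1684 in the thresholded list, 671 in replicate 1 and 1004 in replicate 2. Its summits at 4674, 4673 and 4672 lay within 2 bp of each other, near the start of the gene at 15.4% of its length. The extent was less stable than the summit: 758 bp in the thresholded list (chrM:4269-5026), 248 bp in replicate 1 and 736 bp in replicate 2. The wide form also spanned the genes of tRNA-Ile, tRNA-Arg, tRNA-Gln and tRNA-Phe that precede CYTB, and the form in replicate 1 reached none of them. The second CYTB peak (summit 5029) had 417, with 213 in replicate 1 and 198 in replicate 2. In replicate 2 it was a second summit in nearly the same span as the first (chrM:4279-5016), while in replicate 1 it was a peak of its own (chrM:4815-5250). The third (summit 5274) had 155 in the thresholded list, 100.3 in replicate 1 and 74.9 in replicate 2. It was the weakest mitochondrial peak of the thresholded list and of replicate 2, but 3 peaks of replicate 1 were weaker. Its summit lay 15 bp apart between the replicates.

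COX1 had 3 thresholded peaks spread over the gene, with signals of 931, 248 and 594 at 26.0%, 42.1% and 79.7% of its length. The first, at 8254, had 399 in replicate 1 and 528.5 in replicate 2, with summits 2 bp apart, and ranked 5 and 4. The middle one, at 8509, had 121 and 97.4, with summits 48 bp apart. The last, at 9101, had 191 in replicate 1 and 406 in replicate 2. Replicate 1 had 1 more peak, with a signal of 325 and rank 8 at 8867, 64.8% into the gene. The nearest summit in replicate 2 was 234 bp away, and the stretch from 8696 to 9025 held no replicate 2 peak. This summit thus had no partner in replicate 2.

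Among the 5 genes, the replicates differed most in covered share on ND1. The thresholded list had a peak near the start of the gene, at 1851 with signal 643, and another at 2366 with 469. The first had 413.5 in replicate 1 and 244 in replicate 2, with summits 1 bp apart. The other had 42.1 and rank 170 in replicate 1 but 412 and rank 6 in replicate 2, with summits 9 bp apart. The strongest ND1 signal, 413.5 in replicate 1 and 412 in replicate 2, thus came from different peaks of the gene. Replicate 1 alone had a further ND1 peak, at 2149 with signal 86.3, whose nearest replicate 2 summit was 218 bp away.

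ATP6 held 1 summit in each list, and its peak varied little. In replicate 1 the end of the gene was also overlapped by a peak whose summit lay in a tRNA-Leu gene. The peak with its summit in ATP6 had a signal of 671 in the thresholded list, 330 in replicate 1 and 359 in replicate 2. Its ranks were 7, 7 and 8. The summits at 3020, 3019 and 3032 lay about 64.5% into the gene, 13 bp apart between the replicates. The peak covered 71.5% of this short gene, the highest covered share of the 12 protein-coding genes in the thresholded list. It was also first in replicate 2, but behind ND1 and CYTB in replicate 1. The thresholded peak had the width of 430 bp that 98.9% of nuclear peaks in the thresholded list also had, so its covered share follows from that width and the length of the gene.

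**Figure D2:**
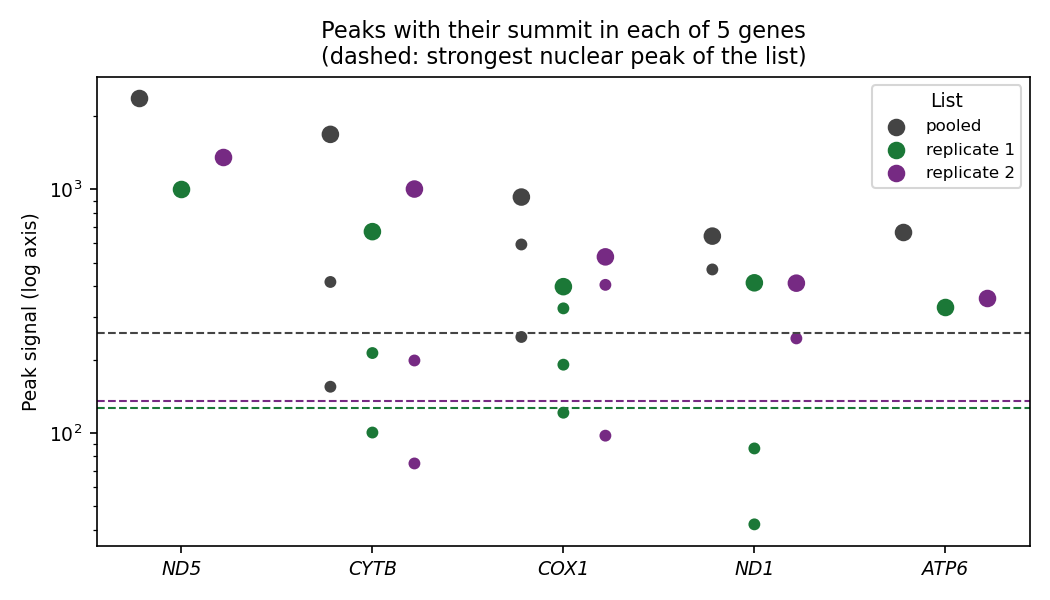
Deposited signal (y axis, log axis) of every peak whose summit lies in ND5, CYTB, COX1, ND1 or ATP6 (x axis), in the pooled list and each replicate. Large points are the strongest peak of a gene in a list, and dashed lines the strongest nuclear peak of that list, at 258, 127 and 135. The strongest peak of each gene lies above its dashed line in all 3 lists.

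By strongest signal the protein-coding genes stood in the order ND5 (2372), CYTB (1684), COX3 (1195), COX1 (931), COX2 (691), ND4 (676), ATP6 (671) and ND1 (643) in the thresholded list. ND5, CYTB and COX3 held the first 3 places in both replicates as well, in that order. COX1 followed ND1 in replicate 1 and came directly after COX3 in replicate 2. The neighbours COX2, ND4, ATP6 and ND1 cannot be ordered: in replicate 1 they had 367, 251, 330 and 413.5, and in replicate 2 348, 423, 359 and 412. COX3 and COX2, the other mitochondrial subunits of complex IV, and ND4 of complex I are not among the 5 genes although their signals exceeded that of ND1 in the thresholded list.

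Matched peak by peak, the replicates placed the 17 thresholded summits at a median distance of 13 bp from each other, with a range of 1 to 62 bp. For the 532 nuclear thresholded peaks the median was 35 bp. The sets were not matched for peak density or for signal, whose thresholded median was 594 for mitochondrial and 65.0 for nuclear peaks. Closeness is partly built in for both sets. The list was thresholded on reproducibility between these same replicates, and each peak was paired with the overlapping replicate peak of nearest summit. The same holds for the signals compared below. By overlap of at least 1 bp, 19 of 20 replicate 1 peaks met a replicate 2 peak, and 18 of 18 the other way. Peaks covered 47.0% of mitochondrial DNA in replicate 1 and 39.8% in replicate 2, so many would overlap wherever they lay. How many was not computed, and overlap alone is no measure of agreement here. By summits within 100 bp, 17 of 20 and 17 of 18 did. The ratio of replicate 2 to replicate 1 signal had a median of 1.33 over the 17 peaks, with a range of 0.591 to 9.79, and replicate 2 was higher in 10. Over the nuclear peaks the median was 0.964, with quartiles of 0.749 and 1.27. The sources used here do not give the scale of the signal, so these ratios describe the lists. Across the 17 peaks, which share libraries and a molecule, the Spearman coefficient of the replicate signals was 0.667.

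**Figure D3:**
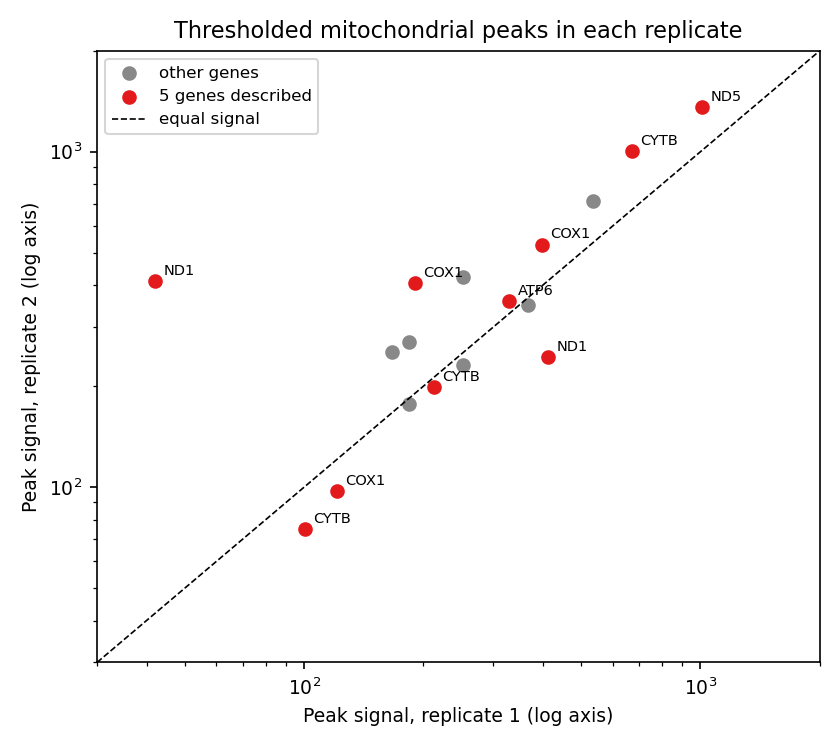
Signal of the 17 thresholded mitochondrial peaks in replicate 1 (x axis, log axis) and replicate 2 (y axis, log axis), matched by overlap and nearest summit. Red points have their summit in 1 of the 5 genes described, and the dashed line marks equal signal. The ND1 peak at 42.1 and 412 stands farthest from the line.

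Covered shares give how much of each gene lay under peaks, and they depend on peak width and gene length. In replicate 1 and replicate 2 respectively, peaks covered 24.1% and 29.2% of ND5 (mean 26.7 ± 3.62, SD, n = 2), and 72.2% and 68.7% of ATP6 (70.4 ± 2.475). COX1 had 68.9% and 53.7% (61.3 ± 10.75), and CYTB 80.95% and 55.9% (68.4 ± 17.7). ND1 had 94.3% and 50.5% (72.4 ± 31.0), the widest difference between replicates among the 5 genes. Only ND5 lay below each of the other 4 genes in both replicates. By the summed difference of the replicate values, the gene most like ND5 was ND4 (16.6 percentage points), and CYTB and COX1 were most like each other (14.3). ND1 was most like CYTB (18.8), and ATP6 most like the small ribosomal RNA (13.7).

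**Figure D4:**
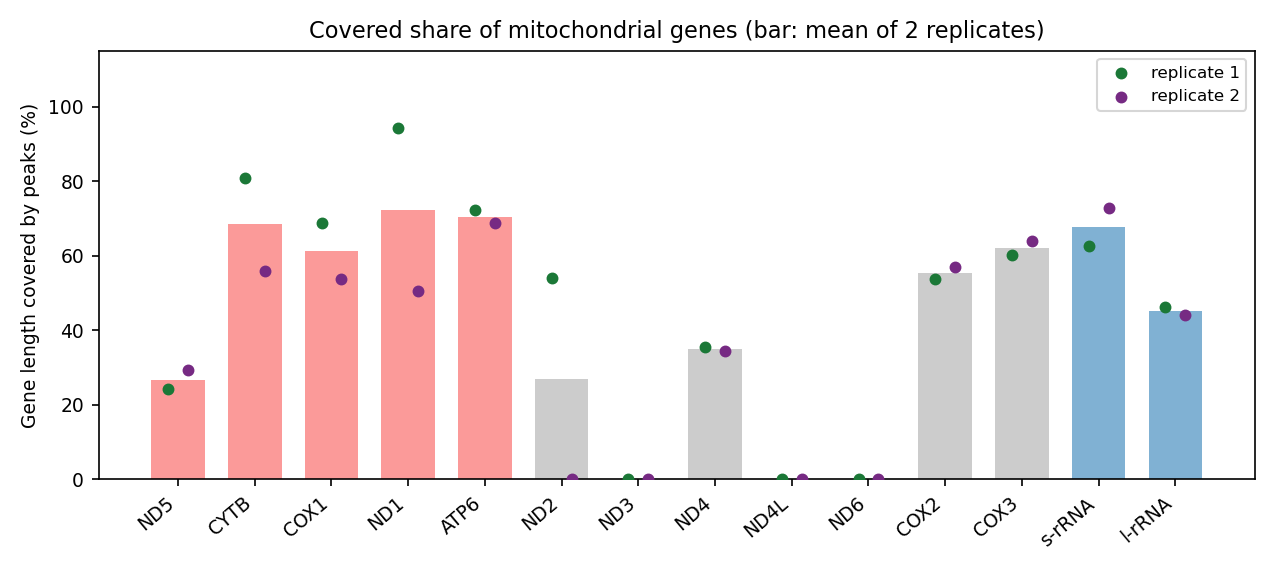
Share of gene length covered by peaks (y axis, percent) for the 5 genes (pink), other protein-coding genes (grey) and ribosomal RNA genes (blue). Bars are means of 2 replicates and points the replicates. ND3, ND4L and ND6 are at 0 in both, and ND2 is at 53.95% in replicate 1 and 0 in replicate 2.

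Peak widths set part of these shares. In the nuclear genome 98.9% of thresholded peaks were 430 bp wide, while 10 of the 17 mitochondrial peaks had other widths, from 113 to 758 bp. In replicate 1 the usual width was 436 bp, shared by 14 of 20 mitochondrial peaks, and in replicate 2 it was 420 bp, shared by 7 of 18. The median thresholded signal was 619 for mitochondrial peaks of other widths and 408 for those of the usual width.

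The peaks left most of the molecule without any. The 17 thresholded peaks covered 5635 bp, 40.9% of mitochondrial DNA, against 47.0% in replicate 1 and 39.8% in replicate 2. Peaks of both replicates covered 34.8%, and those of either 52.0%. In the pooled list, which also holds weak peaks, 6.83% of nuclear DNA was covered. No weak pooled peak lay between the strong mitochondrial ones, since the lowest of the 17 ranked 24 of 16687.

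The longest uncovered stretch runs across the point at which the circle is opened in the reference. It was 2192 bp in the thresholded list, from 12615 within ND5 to 1012 in the small ribosomal RNA gene, 2208 bp in replicate 1 and 2146 bp in replicate 2. It holds the whole of ND6 and ND4L, both complex I subunits, the genes of tRNA-Ala, tRNA-Pro, tRNA-Val, tRNA-Trp and tRNA-Glu, and a non-coding stretch of 466 bp with 6.87% G and C. The middle of that non-coding stretch is the repeated sequence printed above, where the placing of reads was not analysed. The next gap, 1096 bp from 11054 to 12149, holds ND3, a further complex I subunit, and the first part of ND5. Another, 896 bp from 3373 to 4268, holds ND2 and separates ATP6 and its tRNA neighbours from the CYTB peak.

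ND3, ND4L and ND6 had no peak in any list. ND2 held 1 summit, in replicate 1 only, with a signal of 28.3 and rank 591, the weakest mitochondrial peak of that list. The start of ND2 was also overlapped in replicate 1 by the peak with its summit in tRNA-Leu, with 184. Of the 12 protein-coding genes, 8 thus had a thresholded peak: 3 of the 7 complex I genes (ND1, ND4 and ND5), all 3 complex IV genes, CYTB and ATP6. ND4L, ND3 and ND6 are the shortest of the 12, at 234, 336 and 435 bp. ND2, at 849 bp, is longer than ATP6, COX2 and COX3. The protein-coding genes without a thresholded peak had 18.4 to 21.4% G and C, and the lowest value among those with one was 22.3% (ND4). The large ribosomal RNA gene had 20.99% and also held a thresholded peak, so this division does not extend to all genes. Whether peaks differ by complex apart from gene length and base composition was not tested. A gap of 655 bp between COX1 and COX2 held the genes of tRNA-Cys, tRNA-Met, tRNA-Asp and tRNA-Gly, and a gap of 600 bp between CYTB and COX3 held a tRNA-Leu gene.

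Ribosomal RNA genes, whose products form the mitochondrial ribosome, had peaks of middling strength. The small one (s-rRNA, chrM:898-1594) had a thresholded signal of 392 at 1228, with 183.5 in replicate 1 and 177 in replicate 2. Replicate 2 had a further peak of 259 there, at 1048, and its nearest replicate 1 summit was 179 bp away. The large one (l-rRNA, chrM:10403-11355) had 408 at 10839, with 166 and 252. Both thresholded values lay below the strongest peak of each of the 5 genes. Of 22 tRNA genes 10 were overlapped by a thresholded peak, against 5 by a replicate 1 peak and 10 by a replicate 2 peak. Only 1 held a thresholded summit, tRNA-Lys, downstream of ATP6, with 488 at 3249. That summit lay at the edge of its peak, 2 bp from the start. In replicate 1 the matching summit lay in the next gene, tRNA-Leu, at 3311 with 184, and in replicate 2 in tRNA-Lys at 3250 with 271.

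The summits had more G and C on average than mitochondrial DNA as a whole, and the leading summit of each of the 5 genes had more than its gene. Mitochondrial DNA has 23.8% G and C, and windows of 101 bp at the 17 thresholded summits had 32.1 ± 4.40% (SD over 17 peaks), from 23.8 to 41.6%. The mean over 20 summits was 31.8% in replicate 1, and over 18 in replicate 2 31.3%. At the leading summits the values were 35.6% for ND5, 30.7% for CYTB, 41.6% for COX1, 35.6% for ND1 and 31.7% for ATP6. The genes as a whole had 22.7%, 26.2%, 29.7%, 25.2% and 24.0%. Not every summit lay above its gene. The COX1 summit at 9101 had 26.7%, and the replicate 1 COX1 summits at 8534, 8867 and 9105 had 27.7%, 25.7% and 25.7%. Among thresholded summits outside the 5 genes, that of COX3 at 6300 had 27.7% (gene 28.0%) and that of tRNA-Lys 23.8% (gene 30.2%). The share of all windows inside the gene with less G and C than the leading summit was 91.2% for ND5, 98.1% for COX1, 87.6% for ATP6, 84.4% for ND1 and 68.3% for CYTB.

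The contrast with uncovered DNA did not rest on the non-coding stretch alone. With that stretch left out, covered DNA had 27.9% G and C and uncovered DNA 21.8%. Among the 17 peaks signal did not follow composition: the Spearman coefficient was -0.0344 (Pearson 0.131), 0.0999 over the 20 of replicate 1 and -0.0271 over the 18 of replicate 2. These coefficients describe peaks that share libraries and base composition. The part of base composition in where peaks were called was not tested.

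**Figure D5:**
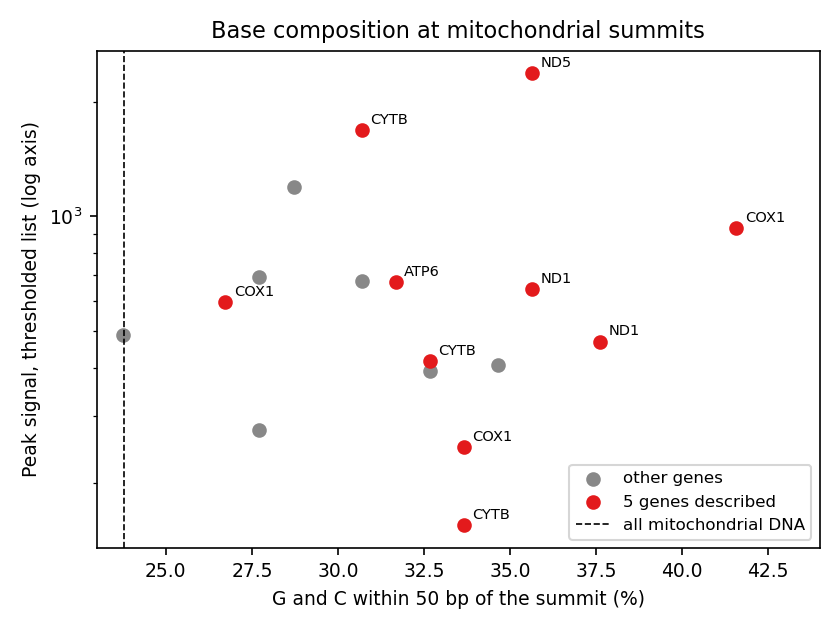
Share of G and C within 50 bp of each thresholded mitochondrial summit (x axis, percent) and its deposited signal (y axis, log axis). Red points lie in the 5 genes described, and the dashed line is the 23.8% of all mitochondrial DNA. All but 1 summit, at tRNA-Lys with 23.8%, lie clearly to the right of the line.

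Few short stretches of the molecule occur unchanged in the nuclear genome. Only exact matches were counted, so copies with more differences could be missed. Of 13794 stretches of 30 bases around the circle, 26 (0.188%) also occur in a nuclear chromosome, at 3964 places, and of stretches of 50 bases 0 do. Repeats within mitochondrial DNA itself were not searched for. Of the 26, 18 lie in the non-coding stretch and 8 in CYTB, and ND5, COX1, ND1 and ATP6 have none. The CYTB ones belong to a copy of 97 bp on the X chromosome (chrX:13457283-13457379, minus strand), within the gene F02D10.3, that differs from chrM:4903-4999 at 2 positions. Both are shown because they bear on where CYTB reads could be placed, with the positions that differ in capitals.
CYTB on mitochondrial DNA: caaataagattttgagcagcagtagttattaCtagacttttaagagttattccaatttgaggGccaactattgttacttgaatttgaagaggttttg
Nuclear copy: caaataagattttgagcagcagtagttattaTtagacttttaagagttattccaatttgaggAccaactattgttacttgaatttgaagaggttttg

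In the thresholded list the copied stretch lies between the first and second CYTB summits, at 4674 and 5029, and 2 CYTB peaks overlap it. In replicate 1 it lies between 4673 and 5033, but in replicate 2 the second summit, at 4986, is inside it. No list had a peak over it on X. The sources used here give neither the read length nor how reads with more than 1 match were placed.

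Nuclear genes for the same complexes had lower signals than the strongest peaks of the mitochondrial genes described, as did every nuclear peak. In the pooled list the nuclear peaks had a median signal of 21.3 and a highest of 258. The mitochondrial genes were also chosen with their peaks known, so nothing about these complexes is read from the difference. Of 45 nuclear genes listed for complexes I, III and IV, cytochrome c, the ATP synthase and the upkeep and transcription of mitochondrial DNA, all 45 were found in the annotation and 1 (2.22%) was overlapped by a thresholded peak, against 1.68% of all nuclear protein-coding genes. That gene was ucr-2.3 on III, which encodes a core subunit of complex III, with a signal of 62.9 at rank 309 (32.6 in replicate 1 and 28.6 in replicate 2). In the pooled list 30 (66.7%) were overlapped, against 39.4% of all, by peaks of at most 62.9. Numbers were 34 in replicate 1 and 30 in replicate 2 (75.6% and 66.7%, against 48.9% and 46.8%). Gene length and expression were not matched. The complex I genes with a pooled peak numbered 7 of 14, led by nuo-4 (46.6), and those of the ATP synthase 6 of 10, led by the beta subunit gene atp-2 (45.6), where ATP6 had 671. Those of complex III, to which CYTB belongs, numbered 6 of 7, and those of complex IV, to which COX1 belongs, 7 of 7 with a highest signal of 37.75. For complexes III and IV each, replicate 1 had 7 of 7 and replicate 2 had 5 of 7. Both replicates had 8 of the 14 listed complex I genes and 8 of the 10 listed ATP synthase genes.

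Neither the number of copies of mitochondrial DNA nor the depth of immunoprecipitated and control reads over it was analysed here, and an untagged strain was not used. Copy number and binding by DAO-5 therefore cannot be told apart for these peaks.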

How the data were processed

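DAO-5 ChIP-seq peak lists in narrowPeak format, 4 for each of 2 builds (ce10 and ce11), were used: 1 per replicate, 1 from pooled reads and 1 thresholded on the irreproducible discovery rate, which the deposited notes derive from the other 3. The replicate and pooled lists also hold background peaks, and 1 further file entered the lists of both replicates, per the deposited notes. The signal and the −log10 q of each peak were deposited by the authors; the aligner, peak caller, versions, scaling and threshold are not given in the sources used here. Depth is unknown, as no read counts were used, so no interval was given.

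Coordinates are ce11 and 1-based, with genes and sequence from RefSeq WBcel235, and the ends of all peaks lay within its chromosomes; some of Ensembl's mitochondrial gene bounds differ. A peak was placed on a gene by an overlap of at least 1 bp. Covered length, gaps (joined across the ends of the circle), G and C content and stretches shared with the nucleus were computed with Python 3.11.15, numpy 2.4.6, pandas 2.3.3, scipy 1.17.1 and matplotlib 3.10.9, and no coordinate was converted. In 20 simulated peak lists the planted covered length, longest gap and placement were recovered in all 20.

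The members, gene lists and measures were chosen with earlier results of these data known, and no test was run. Besides the 5 members, the text names mitochondrial genes with a thresholded peak or in a gap of 200 bp or more, the mitochondrial gene most like each member in covered share, and the nuclear genes of the fixed list with a thresholded peak, and the strongest nuclear peak; nuo-4 and atp-2 and the nuclear copy of CYTB were picked after their values were seen.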

Additional observations from a re-analysis of the deposited data

How the results depend on the processing

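Counts and positions from the thresholded list were equal in the pooled list and in the stronger part of the thresholded list, and the ce10 thresholded list also had 17 mitochondrial peaks, all 17 among the 25 strongest. The 5 genes kept their strongest signal when the summit, or at least 50% of the peak, had to lie within the gene. Among 80 comparisons 62 stayed within the spread of the replicates or within 1.5 times of a count, 18 moved and 0 changed sign. Of the 62, 16 in the pooled list and 16 in the stronger part could not move, since both hold the same 17 peaks. Of the 18, 17 came from leaving out a replicate: 8 of 16 results moved without replicate 1 and 9 of 16 without replicate 2. The spread was taken from these same single-replicate values, and counts, shares and signals cannot change sign. The tally is therefore no measure of robustness.

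With the strongest 549 peaks of a single replicate (without replicate 1 or without replicate 2), the covered share of mitochondrial DNA was 39.8 to 44.5%, the longest gap 2146 to 2208 bp, and the covered share 24.1 to 29.2% for ND5, 53.7 to 68.9% for COX1, 68.7 to 72.2% for ATP6 and 50.5 to 94.3% for ND1, which had 94.3% without replicate 2 against 48.4% in the thresholded list. Signals were on the lower scale of the replicate lists, at 1008 to 1355 for ND5, 671 to 1004 for CYTB, 398.7 to 528.5 for COX1, 412.1 to 413.5 for ND1 and 329.6 to 359.1 for ATP6. The excess of G and C at summits over the rest of the molecule was 9.49 percentage points, 8.66 to 9.67 in single replicates, 7.61 with 100 bp to each side, where the wider window takes in more of the surroundings, and 8.86 without the longest non-coding stretch, a setting chosen after seeing the data. With 2 replicates the spread is poorly known, and unknown depth limits what a missing peak can show.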

Other observations

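The ce10 lists, whose coordinates were not used, gave nearly the same mitochondrial signals. The highest was 2372 in the thresholded list, 1015 in replicate 1 and 1355 in replicate 2, against 2372, 1008 and 1355 in ce11. The median differed in replicate 1, at 212 in ce10 and 232 in ce11, while replicate 2 had 309.7 in both. Peaks on mitochondrial DNA stood at 12.3 per 10 kb in the pooled list, and nuclear peaks at 1.66 per 10 kb.

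The pooled signal was above the signal in either replicate for all 5 genes. The highest nuclear signal was likewise 258 when pooled, against 127 for replicate 1 and 135 for replicate 2, each the highest of its own list and not matched as a peak.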
